A study of Mus musculus with 20 samples.

Results

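The 10 genes described here are products of the lung and airway lining: 4 surfactant proteins (Sftpa1, Sftpb, Sftpc and Sftpd), 3 secretoglobins (Scgb1a1, Scgb3a1 and Scgb3a2), 2 BPI fold proteins (Bpifa1 and Bpifb1) and Ager, the receptor for advanced glycation end products. They were followed in medullary thymic epithelial cells of mice with and without Aire. The set was chosen by name, and every probe set annotated to exactly 1 of these symbols was used, which gave 14 of the 45037 probe sets tested and 10 of the 18193 genes they represent. Sftpa1, Sftpc, Bpifb1 and Ager have 2 probe sets each. Each gene is given by the brightest of its probe sets, ranked by the mean of all arrays, and the other probe set is given beside it.

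The series compared male mice, 3 to 4.5 weeks old, that were wild-type (WT) or knockout (KO) for Aire on 3 inbred backgrounds. B6 and NOD had 3 WT and 3 KO mice each, and BALB had 4 WT and 4 KO mice. Each array held the RNA of sorted cells from 1 thymus, gated as CD45-, G8.8+, Ly51int and class II hi, the medullary epithelial cells with much MHC class II on their surface. No treatment was given in the labels, and neither the Aire allele nor substrain names are stated in them. WT and KO below are the groups as labelled.

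Medullary thymic epithelial cells carry many proteins that are otherwise made only in single organs, so that developing T cells can meet them in the thymus. Aire is the nuclear protein best known for switching on such genes. In the lung, surfactant proteins are made mainly by alveolar type 2 cells, secretoglobins by club cells, and BPI fold proteins by the secretory lining of the upper airways, while Ager marks the flat alveolar type 1 cell. Bpifb1 is known as a lung autoantigen when Aire is missing.

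RefSeq promoter windows (build GRCm38.p6) were at hand for 6 of the 10 genes, in 7 windows since Bpifb1 has 2 starts. The windows of Ager and of the other Bpifb1 start lie inside the annotated gene rather than before it. The 250 bases upstream of the start are printed for the 3 genes with a match to a motif searched: Bpifa1 and Sftpa1, which hold TATAAA, and Scgb3a1, which like Sftpa1 holds CAAGTG. All 3 are on the plus strand and run 5′ to 3′, and capitals mark the motif matches, so that CAAGTG on the other strand reads CACTTG.
Bpifa1, chr2:154142630-154142879: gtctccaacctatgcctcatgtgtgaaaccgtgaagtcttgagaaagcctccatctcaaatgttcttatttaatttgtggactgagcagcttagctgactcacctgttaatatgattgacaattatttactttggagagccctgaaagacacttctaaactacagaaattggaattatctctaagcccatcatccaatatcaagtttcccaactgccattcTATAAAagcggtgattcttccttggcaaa
Sftpa1, chr14:41131538-41131787: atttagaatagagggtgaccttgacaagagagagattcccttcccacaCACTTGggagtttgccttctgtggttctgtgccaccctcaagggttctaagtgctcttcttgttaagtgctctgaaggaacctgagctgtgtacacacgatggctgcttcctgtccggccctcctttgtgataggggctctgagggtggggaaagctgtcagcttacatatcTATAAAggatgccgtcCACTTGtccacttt
Scgb3a1, chr11:49663345-49663594: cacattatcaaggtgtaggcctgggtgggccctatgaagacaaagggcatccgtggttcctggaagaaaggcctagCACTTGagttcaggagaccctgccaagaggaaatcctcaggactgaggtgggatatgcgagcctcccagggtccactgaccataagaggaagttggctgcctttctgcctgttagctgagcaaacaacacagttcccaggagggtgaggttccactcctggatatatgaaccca

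Both strands were searched for TATAAA, for CAAGTG, the core bound by NKX2 factors such as the lung regulator Nkx2-1, for TGTTTAC, a forkhead site, and for CACGTG, an E-box. TATAAA stood in 2 of the 7 windows, beginning 29 bases upstream of the start in Bpifa1 and 30 in Sftpa1, and in 12.4% of all 32851 windows of the same length. CAAGTG was found in 2 of 7, beginning 202 and 14 bases upstream in Sftpa1 and 174 in Scgb3a1, against 11.6% of all windows. TGTTTAC and CACGTG had 0 matches in the 7 windows, against 3.17% and 6.02% of all. No matches overlapped. A match is a run of letters and was not tested as a site.

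Averaged over the 3 strains, 8 of the 10 genes were lower in KO mice, Ager was higher and Sftpb did not pass the test (limma on log2 intensity, adjusted p under 0.05 over all probe sets). Of all 18193 genes, 16.6% were lower and 9.7% higher by the same rule. Of the 10 genes, 4 fell by at least 2-fold: Bpifa1, Scgb1a1, Sftpc and Sftpd, a size of fall reached by 3.57% of all genes. The median difference over the 10 genes was -0.96 on the log2 scale, and over all genes it was 0.01. Of the 14 probe sets 10 were lower and 2 higher, where 10.1% and 10.5% of all probe sets were. In 6 genes all 10 KO mice lay below every WT mouse of their strain, as did 5.56% of all genes, and in Ager all 10 lay above, as did 1.62%. The values of each mouse are drawn in the plot of the 10 genes by group.

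**Figure D1:**
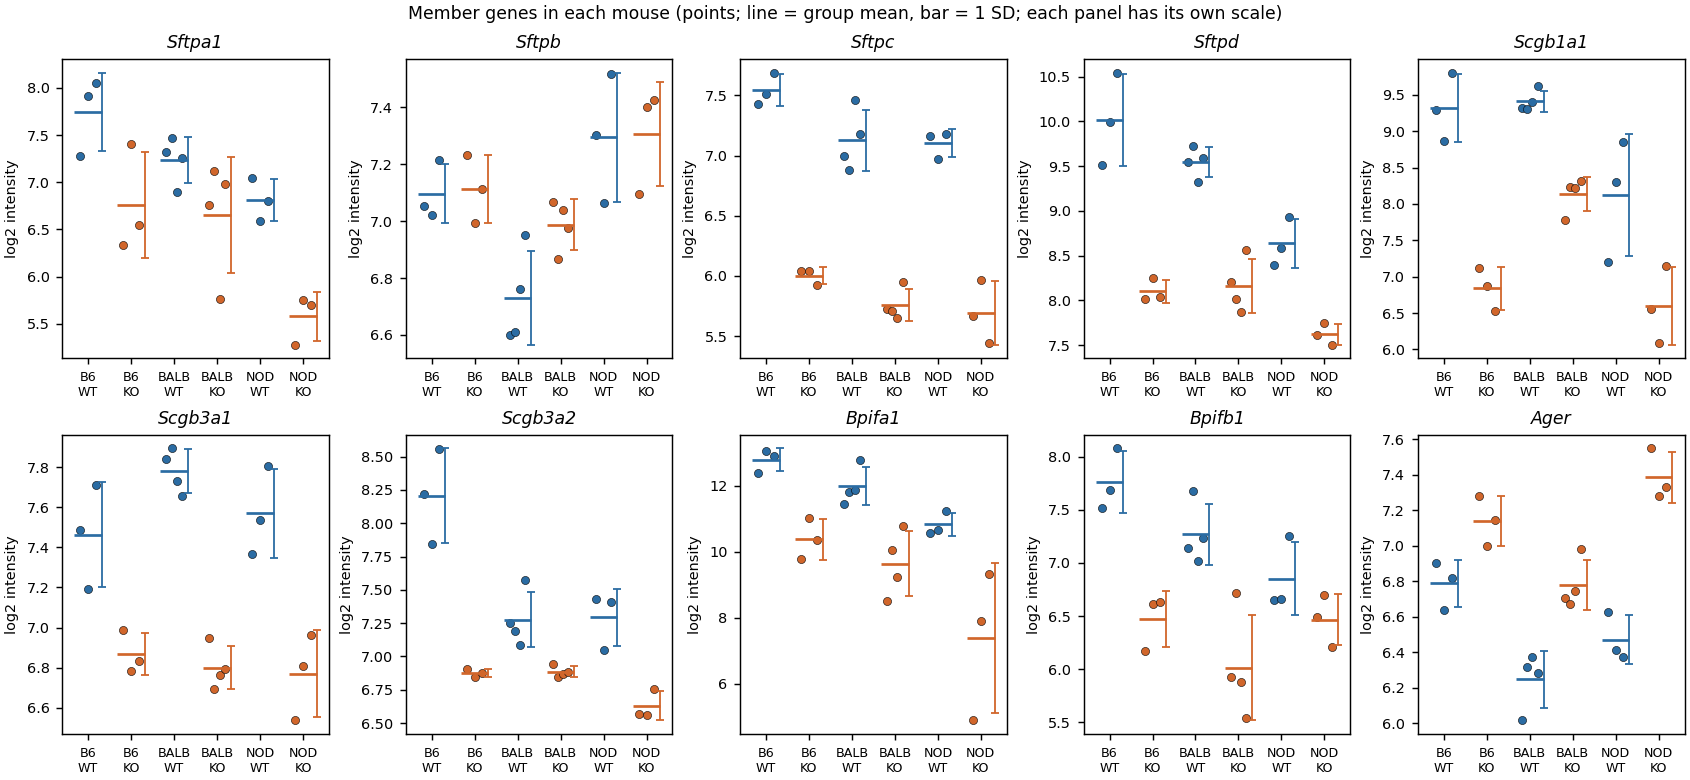
Log2 intensity of the 10 genes in each of 20 mice, 1 panel per gene with its own scale, by strain and genotype (blue WT, orange KO; lines are group means and bars 1 SD). KO points lie below WT points of the same strain in Sftpc, Sftpd, the 3 secretoglobins and Bpifa1, above them in Ager, and mixed with them in Sftpb.

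These cells were a sorted bulk population, so fewer cells making a product and less of it per cell cannot be told apart. Medians of the 20 arrays ran from 86.3 to 90.9 intensity units, and the lowest 5% of values lay below 3.77 on the log2 scale. The Gapdh 3'/5' signal ratio, a sign of RNA quality, was lowest in B6 WT mouse 2 and B6 KO mice 2 and 3 (1.68 to 1.90 on the log2 scale, all others 2.15 to 3.76), and B6 KO mice 2 and 3 were the most alike pair of arrays of any group (r = 0.996 over probe sets). Without these 3 arrays, the same 8 genes remained lower and Ager higher in the average over strains. The Aire probe set was higher in KO mice (0.74 ± 0.14 (SE), adjusted p = 0.00104), and since its place relative to the deletion is not given, it checks nothing about genotype. Of 13 measured markers of medullary epithelium 2 were lower, 2 higher and 9 not called, with summed intensities from 38110 to 54716 over all mice. Markers of other cells moved in part: 4 of 7 for fibroblasts fell and 3 rose, 2 of 6 for B cells rose, 2 of 9 for cortical epithelium fell (Enpep by -1.93) and 2 rose, 2 of 10 for thymocytes fell (Cd3g by -0.93), 2 of 8 for endothelium fell (Cd34 by -2.11) and 1 rose, and 2 of 10 for dendritic cells and macrophages fell and 1 rose. Summed markers of dendritic cells and macrophages ran from 5137 to 19923 intensity units in NOD WT mice and from 4991 to 13451 in NOD KO mice, the widest ranges of the 6 groups. With these markers as a covariate the 8 genes remained lower and Ager higher in the average over strains.

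The surfactant proteins are of 2 kinds: Sftpa1 and Sftpd encode secreted collectins that bind microbes, and Sftpb and Sftpc encode small hydrophobic proteins that spread lipid at the air surface. Sftpc, whose product is made almost only by alveolar type 2 cells, fell by nearly the same amount in each strain. Its log2 intensity in B6 was 7.43, 7.51 and 7.69 in WT mice and 6.04, 6.04 and 5.92 in KO mice. In BALB it was 6.99, 6.88, 7.46 and 7.18 in WT and 5.72, 5.71, 5.65 and 5.95 in KO mice. NOD mice read 7.17, 6.97 and 7.18 with Aire and 5.67, 5.97 and 5.44 without. All 10 KO mice lay between 5.44 and 6.04, below the lowest of the 10 WT mice at 6.88. The averaged difference was -1.44 ± 0.08 (SE), a 2.71-fold fall (adjusted p = 5.02e-10), with -1.54 in B6, -1.37 in BALB and -1.41 in NOD. The other Sftpc probe set had group means of 3.64 to 4.11, near the bottom of the scale, and did not pass (0.07 ± 0.07 (SE), adjusted p = 0.511).

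Sftpd, surfactant protein D, fell in each strain. B6 WT mice read 9.51, 9.99 and 10.54 and B6 KO mice 8.02, 8.25 and 8.04. BALB mice had 9.55, 9.72, 9.33 and 9.59 in the WT group and 8.21, 8.01, 7.87 and 8.56 in the KO group. For NOD the values were 8.39, 8.58 and 8.93 in WT and 7.62, 7.74 and 7.51 in KO mice. No KO mouse reached a WT mouse of its strain, and NOD WT mice lay below the WT mice of both other strains. Averaged over strains the difference was -1.44 ± 0.12 (SE; adjusted p = 6.53e-08), made up of -1.92 in B6, -1.39 in BALB and -1.01 in NOD. Without WT mouse 3 the NOD difference was -0.87 and missed the threshold (adjusted p = 0.0612).

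Sftpa1, surfactant protein A, fell on average with more overlap. In B6 the WT mice had 7.28, 7.92 and 8.05 and the KO mice 6.33, 7.40 and 6.54. Among BALB mice, WT read 7.32, 7.47, 6.90 and 7.25 and KO 6.76, 7.12, 5.76 and 6.98. NOD WT mice had 7.04, 6.59 and 6.80 and NOD KO mice 5.28, 5.75 and 5.70. Of 10 KO mice, 7 read less than every WT mouse of the same strain, the 3 NOD mice among them. The averaged fall was -0.93 ± 0.18 (SE; adjusted p = 0.000764). Within strains it passed in NOD alone (-1.24, adjusted p = 0.0304), a call lost without any 1 of the 6 NOD mice (adjusted p 0.0606 to 0.151). The NOD call was also lost with 16 added to each intensity (0.0544) and with the macrophage markers as a covariate (0.0645). The fall was -0.99 in B6 (adjusted p = 0.0628, and 0.0187 to 0.0392 without B6 WT mouse 1, B6 KO mouse 2 or BALB KO mouse 3) and -0.58 in BALB (adjusted p = 0.26, and 0.0361 with mouse pairs of the same number as a block). Its other probe set fell less, by -0.29 ± 0.10 (SE, adjusted p = 0.0414). Within strains that probe set did not pass, at -0.52 in B6 (adjusted p = 0.0738), -0.11 in BALB (0.769) and -0.23 in NOD (0.673).

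Sftpb, the surfactant protein needed for lamellar bodies and the lipid film, was the 1 gene of the 10 not called. It read 7.05, 7.02 and 7.21 in B6 WT mice and 7.23, 6.99 and 7.11 in B6 KO mice. BALB WT mice had 6.60, 6.61, 6.76 and 6.95, and BALB KO mice 7.07, 6.87, 7.04 and 6.97. NOD values were 7.30, 7.07 and 7.52 in WT and 7.09, 7.40 and 7.42 in KO mice. Genotypes overlapped in all 3 strains, though 3 of 4 BALB KO mice lay above every BALB WT mouse. By strain the difference was 0.02 in B6, 0.01 in NOD and 0.26 in BALB. The BALB value had an unadjusted 95% interval from 0.02 to 0.49 and did not pass (adjusted p = 0.218). The averaged difference was 0.10 ± 0.07 (SE), its 95% interval ran from -0.06 to 0.25, and the adjusted p was 0.361. Falls of the size seen in the other 3 surfactant genes lie outside that interval.

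The secretoglobins are small secreted dimers of the airway lining, and all 3 fell. Scgb1a1, the club cell secretory protein, had the largest fall of the 3. Its B6 values were 9.29, 8.87 and 9.80 in WT mice and 7.12, 6.88 and 6.52 in KO mice. In BALB, WT mice read 9.31, 9.30, 9.40 and 9.62 and KO mice 7.78, 8.23, 8.21 and 8.31. In NOD, WT mice read 7.20, 8.30 and 8.85 and KO mice 6.56, 6.08 and 7.15. Every KO mouse was below the WT mice of its strain, with NOD WT mouse 1 at 7.20 close to NOD KO mouse 3 at 7.15. The averaged difference was -1.76 ± 0.19 (SE), a 3.39-fold fall (adjusted p = 1.46e-06), with -2.48 in B6, -1.28 in BALB and -1.52 in NOD. The NOD call was lost without NOD WT mouse 2 (adjusted p = 0.0611), WT mouse 3 (0.0813) or KO mouse 2 (0.0809), and on the NOD arrays alone (0.123).

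Scgb3a1, a secretoglobin of the larger airways, moved less but with little spread. WT and KO mice of B6 read 7.49, 7.19 and 7.71 and 6.99, 6.79 and 6.83. WT and KO mice of BALB read 7.84, 7.89, 7.73 and 7.65 and 6.95, 6.69, 6.76 and 6.79. Those of NOD read 7.37, 7.54 and 7.80 and 6.54, 6.81 and 6.96. The 10 KO mice all lay between 6.54 and 6.99, under the lowest WT mouse at 7.19. The averaged fall was -0.79 ± 0.08 (SE), or 1.73-fold (adjusted p = 7.28e-07), and it passed in each strain, by -0.60 in B6, -0.98 in BALB and -0.80 in NOD. In B6 the call was lost without the 3 arrays of low Gapdh ratio (-0.61, adjusted p = 0.159) and with KO mice 2 and 3 as 1 sample (-0.57, adjusted p = 0.0538). It was also lost without WT mouse 3 (-0.47, adjusted p = 0.0829), KO mouse 2 (0.0569) or KO mouse 3 (0.0517), and on the B6 arrays alone (0.0871).

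Scgb3a2, its relative from club cells, had KO values that nearly met across strains. B6 mice had 8.22, 7.84 and 8.55 with Aire and 6.91, 6.84 and 6.88 without it. BALB mice had 7.25, 7.19, 7.09 and 7.57 with Aire and 6.94, 6.85, 6.87 and 6.88 without it. NOD mice had 7.43, 7.05 and 7.41 with Aire and 6.57, 6.56 and 6.76 without it. B6 WT mice stood highest, and KO mice of all strains lay between 6.56 and 6.94, each below the WT mice of its strain. Over the 3 strains it was -0.80 ± 0.09 (SE), or 1.74-fold lower (adjusted p = 1.73e-06). It was -1.33 in B6, -0.66 in NOD, and -0.39 in BALB, where it missed the threshold (adjusted p = 0.0954, and 0.0289 with mouse pairs as a block or 0.0453 without B6 WT mouse 2). The NOD call was lost without WT mouse 1 or 3 or KO mouse 1 or 2 (adjusted p 0.0633 to 0.0849).

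Of the BPI fold proteins, which resemble a lipid-binding protein that acts on bacteria, Bpifa1 had the largest averaged fall of the 10 genes. Also called SPLUNC1, it is an abundant secreted protein of the upper airway. B6 WT mice had 12.38, 13.05 and 12.90 and B6 KO mice 9.78, 11.02 and 10.34. For BALB the readings were 11.43, 11.80, 11.88 and 12.78 in WT mice and 8.50, 10.06, 9.22 and 10.77 in KO mice. For NOD they were 10.57, 10.65 and 11.23 in WT and 4.89, 7.90 and 9.34 in KO mice. All KO mice lay below the WT mice of their strain, and the KO mice of NOD ran from 29.7 to 646 intensity units. The averaged difference was -2.73 ± 0.43 (SE), a 6.62-fold fall (adjusted p = 0.000127). By strain it was -3.45 in NOD (adjusted p = 0.0119), -2.33 in BALB (0.0414) and -2.40 in B6, where it was not called (0.063). The fit shares 1 spread over the 6 groups, and the SD was 2.27 in NOD KO mice against 0.35 and 0.62 in B6 WT and KO mice. The B6 fall passed on the B6 arrays alone (0.0111) and without NOD KO mouse 1 (0.00525) or 3 (0.0232). It also passed with array weights (0.0122), dim probe sets left out (0.0469) or mouse pairs as a block (0.00255). The NOD difference was -2.21 without KO mouse 1 (adjusted p = 0.0443) and -4.43 without KO mouse 3. Its call was lost without WT mouse 3 (adjusted p = 0.0623) and on the NOD arrays alone (0.124). The BALB call was lost in 13 of 35 alternatives, with adjusted p up to 0.146.

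Bpifb1 also fell on average, and its probe sets differ in how far. The first read 7.51, 7.69 and 8.08 in B6 WT mice and 6.17, 6.61 and 6.63 in B6 KO mice. BALB values were 7.14, 7.68, 7.02 and 7.23 in WT and 5.92, 6.71, 5.88 and 5.54 in KO mice. NOD mice with Aire read 6.65, 6.66 and 7.25 and those without 6.50, 6.69 and 6.21. KO mice lay below WT mice in B6 and BALB, while NOD KO mouse 2 lay among the NOD WT mice. The averaged difference was -0.98 ± 0.14 (SE), or 1.97-fold (adjusted p = 6.6e-05), from -1.29 in B6, -1.25 in BALB and -0.39 in NOD, the last not passed (adjusted p = 0.613).

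The other Bpifb1 probe set separated the genotypes in all 3 strains. It had 6.38, 7.70 and 6.71 in B6 WT mice and 4.54, 4.52 and 4.47 in B6 KO mice. In BALB it read 5.61, 6.22, 5.23 and 5.65 in WT and 4.63, 4.50, 4.67 and 4.50 in KO mice. In NOD the same probe set gave 5.31, 5.40 and 5.39 in WT and 4.64, 4.61 and 4.52 in KO mice. KO mice of every strain met at 4.47 to 4.67, and WT mice were highest in B6. The SD in KO groups was 0.03 to 0.09, and KO mice did not differ over strains (limma F test, adjusted p = 0.962). The falls by strain thus follow the WT levels. Whether the KO readings were the lower limit of this probe set was not tested. Its averaged difference was -1.43 ± 0.14 (SE; adjusted p = 3.98e-07), with -2.42 in B6, -1.11 in BALB and -0.77 in NOD (adjusted p = 0.1 in NOD).

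Ager, a cell surface receptor of the immunoglobulin family that binds S100 and HMGB proteins, went the other way. In B6 mice it read 6.91, 6.64 and 6.82 in WT and 7.28, 7.0 and 7.14 in KO. BALB mice read 6.02, 6.32, 6.37 and 6.28 in WT and 6.71, 6.67, 6.75 and 6.98 in KO. NOD mice read 6.63, 6.41 and 6.37 in WT and 7.55, 7.28 and 7.33 in KO. Every KO mouse stood above all WT mice of its strain. The averaged rise was 0.60 ± 0.07 (SE), or 1.51-fold (adjusted p = 4.01e-06), with 0.92 in NOD, 0.53 in BALB and 0.35 in B6, where it was not passed (adjusted p = 0.096). Its other probe set rose by 0.26 ± 0.06 (SE, adjusted p = 0.00651), with 8 of 10 KO mice above all WT mice of their strain. By strain that probe set passed in NOD (0.47, adjusted p = 0.024) and not in B6 (0.21, 0.336) or BALB (0.12, 0.6). Of the 7 fibroblast markers Dcn (1.53), Lum (0.75) and Pdgfra (0.20) rose and Col1a1, Col1a2, Col3a1 and Pdgfrb fell (-1.12 to -0.53). Their summed intensity was higher in KO mice of B6 (2304 to 3445 against 1620 to 1715) and BALB (3040 to 3559 against 1480 to 1713) and overlapped in NOD (1588 to 1866 against 1456 to 1878), where the Ager difference had its highest value. Their mean log2 overlapped between genotypes in B6 (7.26 to 7.58 against 7.30 to 7.5) and BALB (7.13 to 7.37 against 7.25 to 7.5). In NOD their mean log2 was lower in KO than in WT mice without overlap (7.12 to 7.29 against 7.31 to 7.51). The part of these markers in the rise of Ager was not tested.

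**Figure D2:**
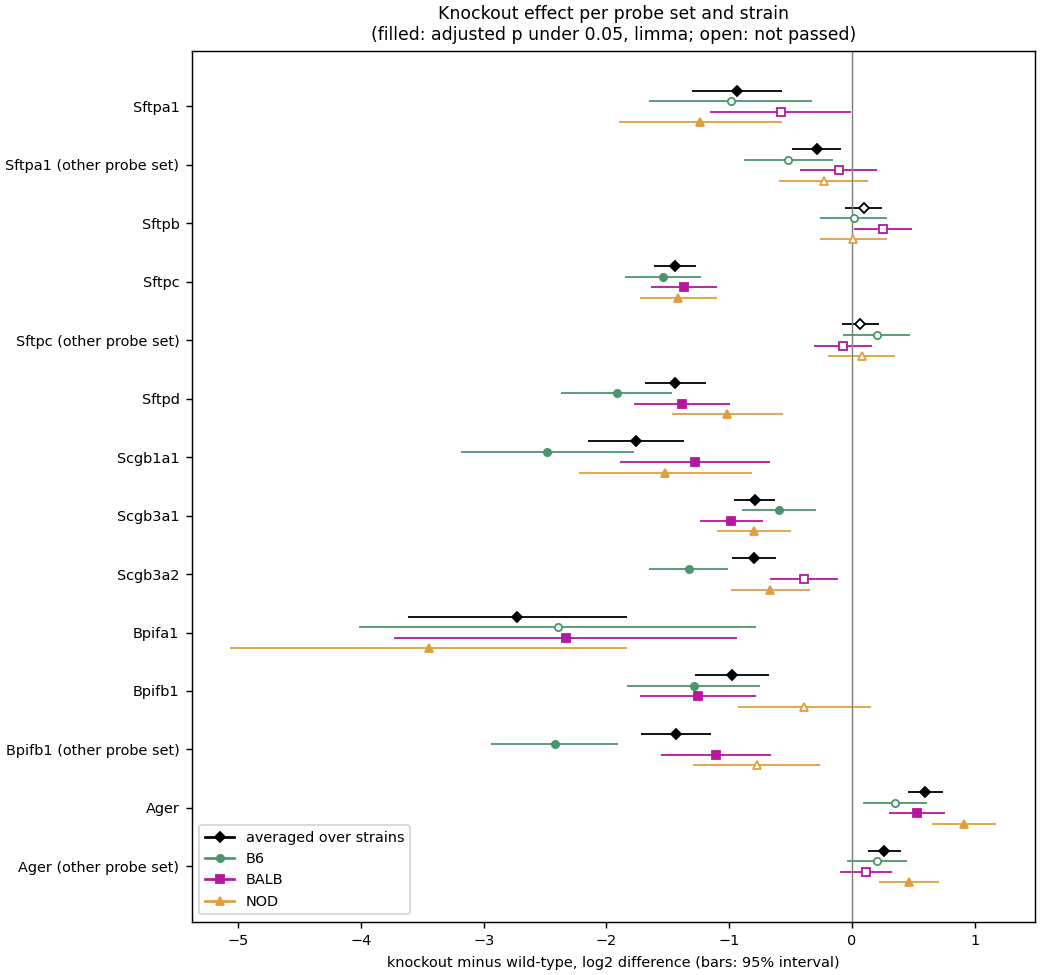
Knockout minus wild-type log2 difference of the 14 probe sets with 95% intervals, averaged over strains (black) and in each strain. Filled symbols passed the limma test at an adjusted p of 0.05. Sftpb and the other Sftpc probe set lie around 0, Ager lies to the right of it, and Bpifa1 lies farthest left with the widest intervals.

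Counted strain by strain, 6 genes were lower in B6 KO mice and 0 higher (9.27% and 3.19% of all genes), though Ager had an unadjusted interval above 0, from 0.09 to 0.61. In BALB 6 were lower and 1 higher (7.48% and 2.89%). In NOD 7 were lower and 1 higher (4.7% and 1.88%). The NOD count of called falls changed with single mice left out. It was 2 (Sftpc and Scgb3a1) without WT mouse 3, 4 without KO mouse 2, and 5 or 6 without 1 of the other 4. The 5 genes no longer called without WT mouse 3 (Sftpa1, Sftpd, Scgb1a1, Scgb3a2 and Bpifa1) then had adjusted p-values between 0.0612 and 0.0947. Their NOD differences were then -1.24, -0.87, -1.15, -0.61 and -3.24, against -1.24, -1.01, -1.52, -0.66 and -3.45 with all mice. All 5 still fell, so the calls rather than the falls were lost.

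An effect called in 1 strain and not in another is not shown to differ, and the test of the difference itself called 0 of the 10 genes, against 0.66% of all genes (limma F test of the strain differences). At an unadjusted p under 0.05 it would take 5 of 10, where 7.22% of all genes pass: Scgb3a2, Ager, Sftpd, Bpifb1 and Scgb1a1. Scgb3a2 came nearest (adjusted p = 0.114). It passed with array weights (0.00433), with mouse pairs as a block (0.0214), without B6 WT mouse 2 (0.021) and without BALB WT mouse 4 (0.0497). With array weights Sftpd (0.0392), Bpifb1 (0.0329) and Ager (0.0378) passed too. For the other Bpifb1 probe set the adjusted p was 0.0692.

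Levels were also compared between strains within each genotype. Among WT mice 5 of 10 genes passed the F test over strains (14.2% of all genes): Sftpb, Sftpd, Scgb1a1, Scgb3a2 and Ager. NOD WT mice had less Sftpd than B6 mice (-1.38, adjusted p = 0.00048) and BALB mice (-0.91, adjusted p = 0.0095). They also had less Scgb1a1 than B6 (-1.20, adjusted p = 0.0368) and BALB mice (-1.29, adjusted p = 0.0183). The Scgb1a1 strain difference was lost without NOD WT mouse 1 (F test, adjusted p = 0.13), the lowest WT mouse for this gene.

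B6 WT mice had the most Scgb3a2, above BALB (by 0.93, as BALB minus B6 read -0.93, adjusted p = 0.000527) and NOD mice (NOD minus B6 -0.91, adjusted p = 0.00101). Sftpb was higher in NOD than in BALB WT mice (0.57, adjusted p = 0.00801), and Ager was lower in BALB than in B6 WT mice (-0.54, adjusted p = 0.00842). The Ager strain difference missed the threshold without B6 WT mouse 1 (adjusted p = 0.0555) or mouse 3 (0.0503). For Bpifb1 the first probe set did not pass over strains (adjusted p = 0.0693) and the other did (adjusted p = 0.000608), with B6 highest in both.

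Among KO mice 4 of 10 genes differed over strains (21.7% of all genes): Sftpa1, Scgb1a1, Bpifa1 and Ager. BALB KO mice had more Scgb1a1 than B6 (1.30, adjusted p = 0.0126) and NOD KO mice (NOD minus BALB -1.53, adjusted p = 0.00389). Sftpa1 was lower in NOD KO mice than in B6 (-1.18, adjusted p = 0.0237) and BALB KO mice (-1.08, adjusted p = 0.0283). Ager was higher in NOD than in BALB KO mice (0.61, adjusted p = 0.00226). The Sftpa1 and Bpifa1 differences were lost without NOD KO mouse 1 (adjusted p = 0.0934 and 0.0947), and that of Bpifa1 also without B6 KO mouse 2 (0.0654) or mouse 3 (0.0529).

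Genes that go with the 10 in the lung were taken as lists and described by counts in the averaged comparison, to be read beside the 16.6% of all genes that were lower and the 9.7% that were higher. Of 7 measured genes of surfactant handling 3 fell, 1 rose and 3 were not called, with a median of -0.31. Pla2g1b, a secreted phospholipase, fell by -1.45, Napsa, the protease that trims surfactant protein precursors, by -0.57, and Lpcat1, which makes surfactant lipid, by -0.34, while Ctsh, another precursor protease, rose by 0.40. The other probe set of Napsa (-0.01) and the 4 others of Lpcat1 were not called, and the Napsa call was lost in 11 of 34 alternatives. Of the 3 other Pla2g1b probe sets 1 fell by -4.11 and the others read 0.14 and -0.08, not called. The alveolar type 2 list fell in 5 of 12 genes and rose in 1 (median -0.27), led by Lcn2 (-1.97), which withholds iron from bacteria, Itih4 (-1.51), the lung chemokine Cxcl15 (-1.43, other probe set -0.64) and Chil1 (-0.96). Its 1 riser was S100g (0.73), named after its value was seen. In the alveolar type 1 list 6 of 12 fell and 2 rose (median -0.33). Igfbp6 (-1.40), the caveolar protein Cav1 (-0.99) and Hopx (-0.98) were lower, and Rtkn2 (0.73) and Clic5 (0.58, named after its value was seen) were higher, as Ager was.

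Lists of airway cells come next. In the club and goblet cell list 12 of 15 were lower and 0 higher (median -0.67), with Aldh1a1, which makes retinoic acid, at -2.72, Retnla at -1.83, Lypd2 at -1.80 and the club cell cytochrome Cyp2f2 at -1.57. The ciliated cell list had 8 of 11 lower and 0 higher (median -0.84), with the radial spoke gene Rsph1 at -1.93, the dynein light chain Dynlrb2 at -1.83, Tppp3 at -1.24 and Cfap126 at -0.91. Of 8 airway basal cell genes 6 were lower and 0 higher (median -0.47), led by Krt15 (-1.01), Dapl1 (-0.73), Krt5 (-0.69) and the water channel Aqp3 (-0.49). Of the 3 other Aqp3 probe sets 1 fell (-0.41) and 2 were not called (0.07 and 0.04). Krt5 and Krt14 in that list are also markers of medullary thymic epithelium. Whether any list differs from another or from the rest of the genes was not tested.

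Transcription factors of lung epithelium were lower in 5 of 12 genes and higher in 1 (median -0.19). Elf5 (-1.90), Sox2 (-1.32), Klf5 (-0.89) and Foxa2 (-0.37) fell. Nkx2-1, the factor that drives surfactant genes in the lung, was the 1 called higher (0.21, adjusted p = 0.0387), and it was named after its value was seen. The number of these factors called higher was not 1 in 18 of 34 alternatives, where it ran from 0 to 2, and it was 0 with quantile normalization. The other Elf5 probe set was not called (0.14), and the others of Klf5 read -0.74, called, and 0.08, not called.

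Relatives of the 10 by family moved as follows. In the BPI fold family 7 of 9 measured genes fell and 0 rose (median -0.61), with Bpifa2, a salivary protein, at -2.06, Lbp, which binds bacterial lipopolysaccharide, at -1.45 (other probe set -0.29), Bpifa5 at -1.16 and Bpifb3 at -1.13. Only 3 of 16 other secretoglobins had a probe set with a single symbol, and Scgb1b27 (-0.96) and Scgb2b27 (-0.74) fell; these genes have close copies that can share probes. Of 5 other collectins 3 fell and 1 rose (median -0.28). Mbl2, a mannose-binding lectin of serum, fell by -2.51, Colec10 by -0.89 and Colec11 by -0.28 (other probe set -2.53, adjusted p = 6.01e-08), and the scavenger receptor Colec12 rose by 1.11. Among 12 measured ligands and partners of Ager 4 fell and 1 rose (median -0.15). S100a9 (-2.94) and S100a8 (-2.15), partners in calprotectin that neutrophils carry in bulk, and Hmgb2 (-0.43) were lower, and S100a6 was higher (0.44). The Hmgb2 call was lost in 17 of 34 alternatives, and its 2 other probe sets were not called (0.05 and -0.24).

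**Figure D3:**
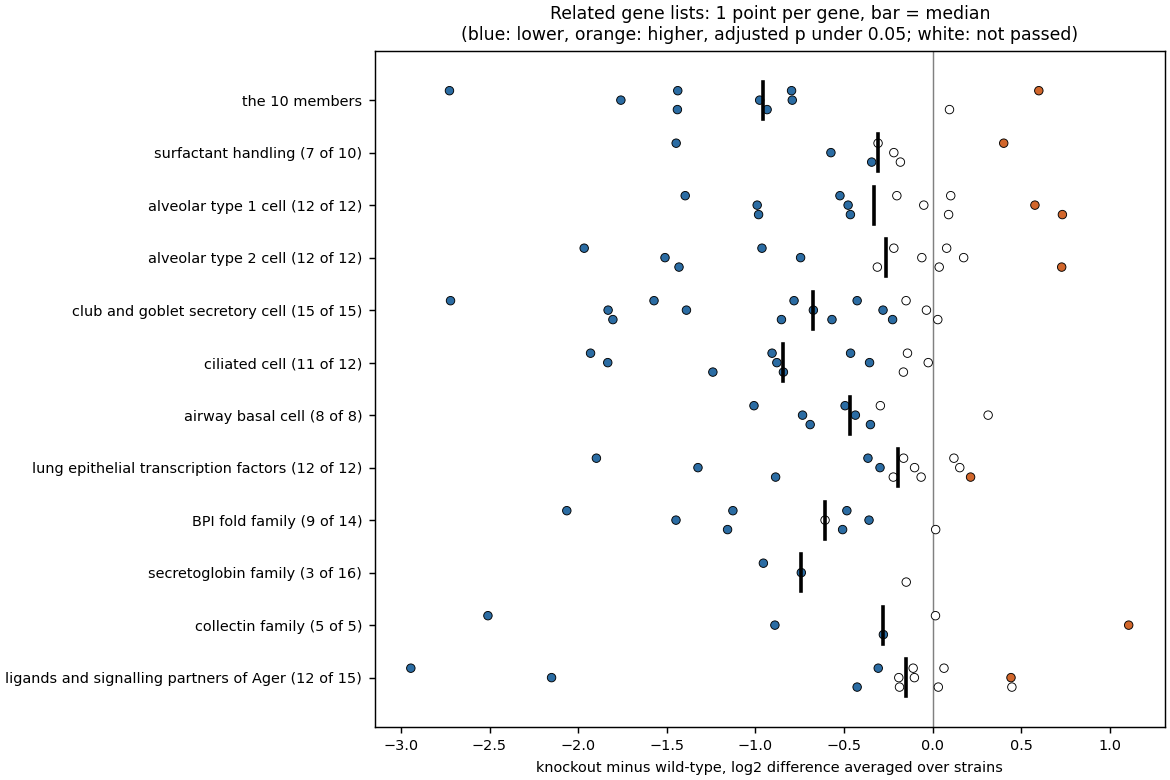
Knockout minus wild-type log2 difference averaged over strains for the 10 genes and 11 related lists, 1 point per gene, with the median as a bar (blue lower and orange higher at an adjusted p of 0.05, white not called). The club and goblet, ciliated and basal cell lists and both the BPI fold and secretoglobin lists hold 0 risers, and the transcription factor and Ager partner medians lie nearest 0.

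Position along the chromosome was taken from the RefSeq gene order, and counts of neighbours stand beside 16.6% lower and 9.7% higher among all genes. Around Bpifa1 and Bpifb1, 7 of 17 measured neighbours fell and 0 rose. Of these 7, 6 are BPI fold genes: Bpifa2 (-2.06), Bpifa5 (-1.16), Bpifb3 (-1.13), Bpifb9b (-0.51, other probe set -1.84), Bpifb2 (-0.48) and Bpifb5 (-0.36); Dnmt3b (-0.48), a DNA methyltransferase, is the other. Within the run Bpifa3 (0.02), beside Bpifa1, and Cdk5rap1 (-0.05), beside Bpifb1, were not called, and both were named after their values were seen. Close copies in this family could share probes.

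Around Sftpa1 and Sftpd 2 of 17 neighbours fell (Mat1a -0.88, Dydc1 -0.39) and 3 rose (Tspan14 0.51, Sh2d4b 0.43 and Ero1a 0.39). All measured neighbours beyond Sftpd lay 2991 to 4158 kb from it, Ero1a at 4111 kb. On the other side the farthest were at -1957 and -1700 kb and the next at -361 kb, so the count reaches well past the locus. The Ero1a call was lost in 15 of 34 alternatives. Mbl1, a collectin between Sftpa1 and Sftpd, read 0.02 and was not called, a gene named after its value was seen. Around Ager, which lies in the MHC, 0 of 16 fell and 4 rose: BC051142 (1.13), H2-Eb2 (0.71), Btnl2 (0.30) and H2-Eb1 (0.18). The call was lost in 26 of 34 alternatives for H2-Eb1 and in 15 of 34 for Btnl2. Its nearest neighbours Pbx2 (-0.07) and Rnf5 (0.13), also named after their values were seen, did not pass. Of 4 neighbours each, Scgb3a2 had 3 that fell (Spink1 -2.26, Gm94 -1.09 and Jakmip2 -0.74), Scgb1a1 had 2 (Asrgl1 -0.70 and Ahnak -0.32, the latter lost in 7 of 34 alternatives), and Sftpb, Sftpc and Scgb3a1 had 0.

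**Figure D4:**
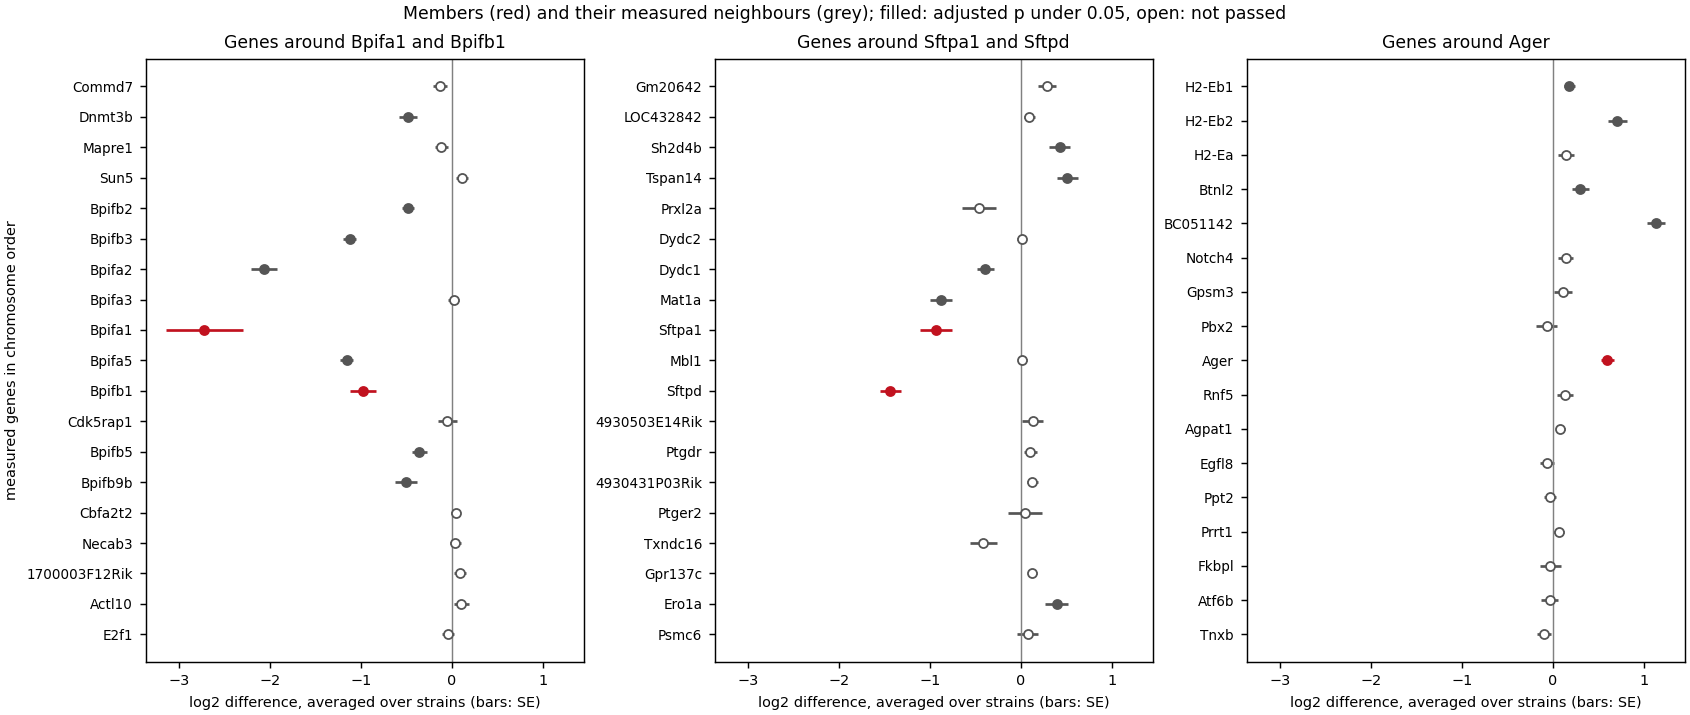
Knockout minus wild-type log2 difference averaged over strains, with SE bars, for genes in chromosome order around Bpifa1 and Bpifb1, around Sftpa1 and Sftpd, and around Ager (red the 10 genes, grey neighbours, filled if passed). Lower genes form a run broken by Bpifa3 and Cdk5rap1 in the first panel, and Mbl1 sits at 0.02 between Sftpa1 and Sftpd in the second.

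The genes most like 2 of the 10 were found by Pearson correlation of log2 intensity over the 20 arrays among 18183 other genes. Genotype and strain are shared by all genes on these arrays and feed into each value. For Bpifb1 they were Upk3a (r = 0.932), Saa2 (0.924) and Mucl1 (0.92). For Scgb1a1 they were Fxyd3 (0.967), St8sia6 (0.953) and Slc39a8 (0.942).

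The codes that the labels give to samples form runs of unstated meaning. Of the 5 sets of WT and KO mice that share a strain and a run, 1 NOD set held only WT mouse 1 and KO mouse 1. The others held 2 mice of each genotype, and the B6 set held KO mice 2 and 3, the most alike pair. B6 WT mouse 1 and B6 KO mouse 1 were in no set. The difference of each of the 8 falling genes was below 0 in 5 of 5 sets and that of Ager above 0 in 5 of 5. For the 6 genes with all 10 KO mice below every WT mouse of their strain, and for Ager, these signs were fixed by that separation. Of these genes only Sftpa1 and Bpifb1 could have changed sign. How many of all genes kept their sign in every set was not counted. Sftpb was below 0 in 2 sets and above in 3. Bpifa1 ranged from -5.68 to -2.30 over the sets, Scgb1a1 from -2.64 to -0.64, Sftpc from -1.61 to -1.22 and Ager from 0.34 to 0.92. The values -5.68, -0.64 and 0.92 came from the NOD set with 1 mouse of each genotype.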

How the data were processed

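Expression was measured on Affymetrix arrays, 1 per thymus, from total RNA that was amplified in a pair of rounds before labelling, per the labels' protocols. The deposited values are linear intensity per probe set, made by the authors with RMA per the submitters' processing notes; for its version and settings, and for which arrays were normalized together, the sources used here give nothing. Such amplification can favour 3' ends, and the dimmest probe sets may understate differences.

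Groups came from the sample titles. Of 45101 probe sets, 64 controls were left out and the deposited intensity of 45037 was taken as log2. Exactly 1 symbol was annotated to 34945, several to 932, and 9160 were unnamed here. Group means were fitted to 20 arrays with limma 3.58.1 in R 4.3.3 (14 residual degrees of freedom), with Benjamini-Hochberg adjustment over all probe sets and a threshold of 0.05. The code was tested on simulated data. Genes outside the 10 were named as the 4 largest called differences per list, as called neighbours, or by the 3 highest correlations. Cell type markers fell outside these rules. Of these, Enpep, Cd3g and Cd34 were named after their values were seen, and all 7 measured fibroblast markers were given. Other exceptions are marked where they appear. The members and lists were chosen with earlier results of these data known. Same-numbered mice deviated together in BALB (r 0.46 to 0.66) and NOD (0.31 to 0.67), while in B6 1 of 3 pairs did not (-0.13). No pairing entered the main fit. The block alternative paired same-numbered mice in all 3 strains, B6 too. Alternatives covered scaling, an offset, a filter on dim probe sets, the variance model, weights for arrays, blocks, a fold limit, the choice of probe set, the arrays fitted and each mouse left out. The number of arrays limits the precision.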

Additional observations from a re-analysis of the deposited data

Results flagged for a closer look

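In the other Sftpa1 probe set, BALB KO mouse 4 read 5.67 on the log2 scale while the nearest BALB KO mouse read 5.0, a gap of 0.857 of the group's range. Of 28 groups of 4 mice checked in this way this was the 1 that stood out, where chance gives about 1 in 20.

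Among the 60 other genes checked, the knockout effect of 5 differed between strains by limma's F test, which called 0.66% of all genes. The 60 had been chosen because they were called in the averaged comparison. That was not asked of all genes, so the count and the share are not on a like footing. Rsph1 fell by -3.01 in BALB, -1.70 in B6 and -1.09 in NOD (adjusted p = 0.00483). Elf5 fell by -2.77 in B6, -1.65 in NOD and -1.28 in BALB (adjusted p = 0.0243). Bpifb2 read -1.06 in B6, -0.27 in NOD and -0.13 in BALB (adjusted p = 0.0275). Lypd2 fell by -2.48 in B6, -1.84 in BALB and -1.09 in NOD (adjusted p = 0.0336). Bpifa2, near Bpifa1, read -3.16 in B6, -1.52 in NOD and -1.51 in BALB (adjusted p = 0.0487).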

How the results depend on the processing

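Averaged over strains, the calls of the 9 genes were kept under all alternatives except the 2-fold limit, where 4 were lower and 0 higher. That limit also left 0 higher in BALB and 0 in NOD. Array weights gave 1 gene higher in B6, 4 with an effect that differed between strains, 8 that differed among WT and 7 among KO mice. The replicate block gave 1 higher in B6 and 1 with an effect that differed between strains; beside these counts and the values given with Sftpa1 and Scgb3a2 in BALB, it brought Sftpa1 (-0.99, adjusted p = 0.00309), Bpifa1 (-2.40, 0.00255) and Ager (0.35, 0.0181) past the threshold in B6 and changed no other effect's call. Leaving out the 3 arrays of low Gapdh ratio left 2 genes differing among KO mice, and the Gapdh ratio as a covariate gave 1 higher in B6; these settings, the macrophage covariate and the merging of B6 KO mice 2 and 3 were chosen after seeing the data. With 1 mouse left out, 2 to 7 genes were lower in NOD, 0 to 1 differed in effect between strains and 2 to 5 differed among KO mice. Sftpb, not called, changed sign in B6 with array weights (-0.034) and with code runs as a random block (-0.022), and with 1 mouse left out ran from -0.042 to 0.077 in B6 and from -0.103 to 0.123 in NOD. The cause of these changes was not tested. Over all probe sets 4537 were lower and 4740 higher; array weights gave 6586 and 10129, the block 7203 and 9461, and the 3 arrays left out 3578 and 2979. No detection calls were used, so no gene can be called absent.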

Other observations

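Bpifa1 varied between mice of 1 group more than most genes did, chosen for remark after its values were seen. Its SD of log2 values was 2.27 among the 3 NOD KO mice, rank 1 of 18193 genes, where the median gene had 0.14. Among BALB KO mice it was 0.99, rank 42, and among B6 KO mice 0.62, rank 642. Of the NOD KO mice, mouse 1 (4.89) was in another run of sample codes than mice 2 and 3. In WT mice the SD was 0.35 in B6 (rank 3948), 0.57 in BALB (rank 584) and 0.36 in NOD (rank 1877). By contrast Scgb3a2 had an SD of 0.03 in B6 KO and 0.04 in BALB KO mice, ranks 17591 and 17918, against 0.36 and 0.21 in the WT mice of these strains. No test of the spread was made.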
